A study of Mus musculus with 30 samples.

Results

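The constitutive proteasome subunit genes were taken as every gene symbol that begins with Psma, Psmb, Psmc or Psmd followed by a number, without the immunoproteasome catalytic subunits Psmb8, Psmb9 and Psmb10. The rule found 36 genes among the 24957 genes of the tables, 16 of the core particle and 20 of the regulatory particle. It used gene symbols and no measured value, but it was chosen with earlier results of these data known. Spleens and lymph nodes of mice were profiled by poly(A)-selected RNA sequencing, and the 30 libraries fall into 9 groups. Spleen groups of 3 libraries each were labelled Pad2-/- with imiquimod, Pad4-/- with imiquimod, WT with imiquimod, Pad2-/- control, Pad4-/- control and WT control. Lymph node groups of 4 libraries each were labelled Pad2-/-, Pad4-/- and WT, all with imiquimod, so a response to imiquimod could be measured in spleen alone. Imiquimod is an agonist of the RNA sensor TLR7, and Padi2 and Padi4 encode peptidylarginine deiminases, enzymes that turn arginine residues of proteins into citrulline.

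The source names of the samples call the WT mice FVB and the control spleens naive. The extraction protocol speaks of treated mice without setting the control spleens apart, so the control groups rest on the agent label. No label gives the age of the mice or the dose and length of treatment, and none says that libraries of a group come from separate animals, so the p-values measure the spread between libraries, which may be technical.

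The proteasome degrades proteins that carry ubiquitin chains. Its core particle is a stack of rings, with alpha subunits forming the gated outer rings and beta subunits the inner rings, where Psmb5, Psmb6 and Psmb7 carry the chymotrypsin-like, caspase-like and trypsin-like active sites. The regulatory particle caps the core: ATPases of its base unfold substrates, other base subunits receive ubiquitin chains, and the lid holds the deubiquitinase Psmd14. In immune cells interferon signalling induces Psmb8, Psmb9 and Psmb10, which take the places of Psmb5, Psmb6 and Psmb7 in newly built immunoproteasomes.

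The deposited values are RPKM, read numbers scaled by gene length and by the reads of the library. Spleen libraries totalled 350314 to 506819 RPKM and lymph node libraries 368211 to 468564, and 10905 to 11332 genes in spleen and 11483 to 12198 in lymph node reached 1 RPKM. Read depth cannot be taken from these values. Markers of B cells and T cells were expressed in every group of both tissues, with summed levels of 2886 ± 210 and 588 ± 20.2 RPKM in WT control spleens (SD, n = 3) and of 1152 ± 172 and 703 ± 124 RPKM in WT lymph nodes (SD, n = 4). Padi2 was at 0.468 to 1.20 RPKM in the Pad2-/- spleens and 0.425 to 1.01 in the Pad2-/- lymph nodes, against 4.74 to 10.5 and 5.18 to 5.77 in the WT libraries. Padi4 was at 0.0693 to 0.259 RPKM in the Pad4-/- spleens, against 1.20 to 25.3 in WT spleens. In the 4 lymph node libraries labelled Pad4-/- it was at 0.0958, 0.131, 0.607 and 1.17 RPKM, against 0.679 to 1.05 in WT lymph nodes. The fourth of these lay above all WT lymph nodes, against its label, and the third just under the lowest of them.

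RPKM is scaled by gene length, so levels can be set between genes. In WT control spleens Psmb4, a beta subunit of the inner ring, was the most abundant constitutive subunit gene at a mean of 115 RPKM, and Psmd9, an assembly chaperone of the base, the least abundant at 5.90 RPKM, a 19.5-fold span across 34 genes without the tissue-specific pair. The mean levels of the 7 alpha subunits lay between 34.8 (Psma5) and 75.4 RPKM (Psma2), those of the 7 beta subunits between 50.5 (Psmb2) and 115 (Psmb4), those of the 6 ATPases between 27.8 (Psmc6) and 54.6 (Psmc3), those of the 3 other base subunits between 16.9 (Psmd1) and 55.2 (Psmd4), and those of the 8 lid subunits between 22.3 (Psmd12) and 50.7 (Psmd8). The 3 base chaperones were at 5.90 (Psmd9), 13.9 (Psmd10) and 20.1 RPKM (Psmd5), so Psmd1 lay between them. The order of levels was close to the same in other conditions: Spearman's rho of the 34 mean levels was 0.961 between WT imiquimod and WT control spleens and 0.979 between WT imiquimod spleens and WT lymph nodes. These are correlations across genes, which are not independent replicates. Spleen and lymph node values come from separate tables, so tissue and table cannot be told apart.

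The remaining pair is restricted to other tissues. Psma8, the alpha subunit of testis, was under the filter on low values in both tissues and is given here by level. It was at 0.377 to 0.793 RPKM in the Pad2-/- imiquimod spleens, 0.419 to 0.636 in the Pad4-/- and 0.478 to 0.786 in the WT, against 0.0909 to 0.145, 0.0844 to 0.167 and 0 to 0.131 in the control spleens of the same genotypes. It was listed at 0.0948 to 0.281 RPKM in lymph nodes. Psmb11, the catalytic subunit of the thymus, was near 1 RPKM and passed the filter in both tissues. The other 34 genes passed it too, so 35 of the 36 were tested.

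Nearly all constitutive subunit genes were higher in imiquimod than in control spleens of every genotype. The summed level of the 36 genes was 2554 ± 171 RPKM in Pad2-/- imiquimod spleens against 1561 ± 103 in Pad2-/- control spleens, 2499 ± 29.2 against 1503 ± 11.7 in Pad4-/- spleens, and 3043 ± 96.0 against 1579 ± 50.6 in WT spleens (SD, n = 3 each). The ratios were 1.64 in Pad2-/-, 1.66 in Pad4-/- and 1.93 in WT spleens. The ratio for the core particle and that for the regulatory particle were 1.66 and 1.60 in Pad2-/-, 1.78 and 1.52 in Pad4-/- and 1.97 and 1.87 in WT spleens. As a share of the total RPKM of a library, the 36 genes made up 0.523% in Pad2-/- imiquimod spleens, 0.551% in Pad4-/- and 0.656% in WT, against 0.425%, 0.419% and 0.430% in the controls. The libraries of the imiquimod and control groups did not overlap in summed level in any genotype.

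**Figure D1:**
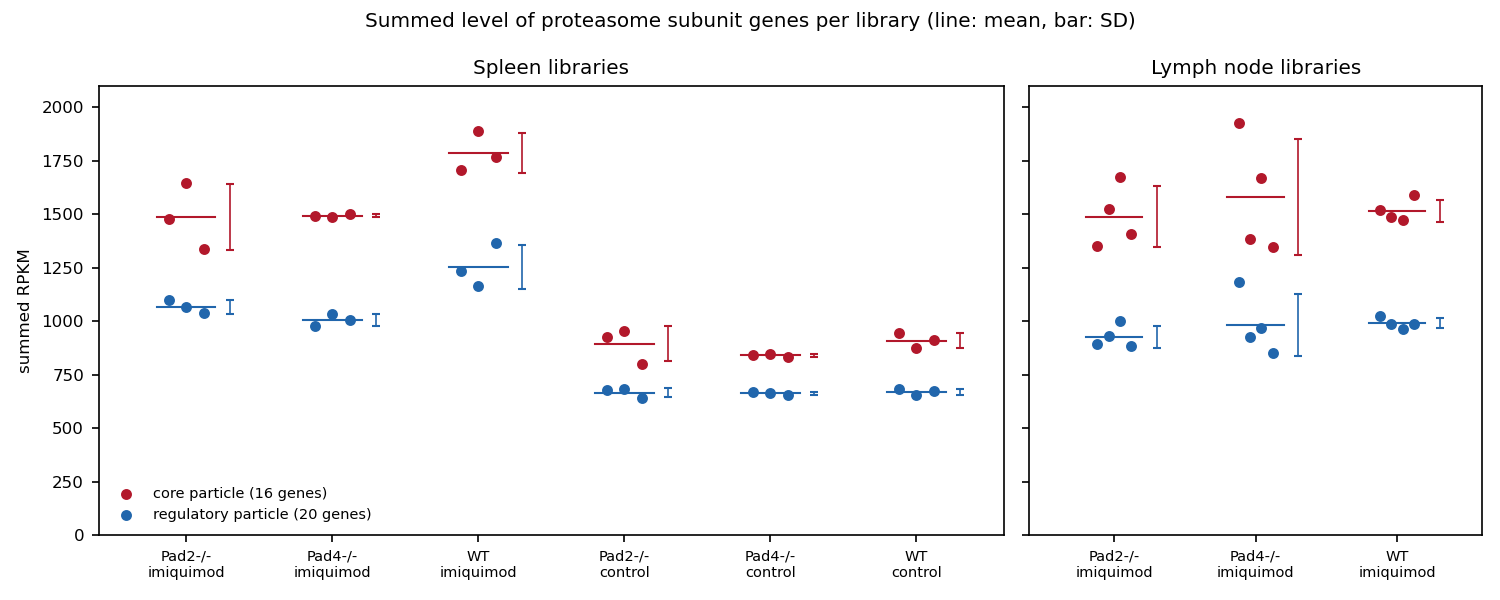
Summed RPKM of the 16 core particle genes (red) and the 20 regulatory particle genes (blue) in each library, by group, with the group mean as a line and the SD as a bar beside it. Both particles are higher in every imiquimod spleen library than in any control spleen library, and WT imiquimod spleens have a mean of 3043 RPKM over both particles, against 2554 and 2499 in the Pad2-/- and Pad4-/- imiquimod spleens on their left.

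Single genes were tested by limma on log2(RPKM + 0.5), a scale that understates the changes of low genes, with a Benjamini-Hochberg adjusted p under 0.05 as the threshold. In each genotype 34 of the 35 genes tested were higher with imiquimod and 1, Psmb11, was lower. The same test called 36.3% of all 11982 genes higher and 36.7% lower in Pad2-/- spleens, 33.9% and 36.1% in Pad4-/- spleens, and 40.3% and 33.2% in WT spleens. The median log2 fold change of the 35 genes was 0.68 in Pad2-/-, 0.70 in Pad4-/- and 0.94 in WT spleens, against -0.02, -0.04 and 0.06 over all genes tested. The subunit genes lay close together, with an interquartile range of 0.248 in WT spleens against 1.14 over all genes. The imiquimod libraries lay above all control libraries for 33 of 35 genes in Pad2-/- spleens, where 37.2% of all genes did so, for 34 of 35 in Pad4-/- spleens (37.6%) and for 34 of 35 in WT spleens (41.8%). Quantile normalization moved the median of all genes to -0.13, -0.12 and -0.13 in Pad2-/-, Pad4-/- and WT spleens and the numbers of all genes higher and lower to 3741 and 5368, 3493 and 5223, and 3868 and 5390. On that scale 32, 33 and 33 of the 35 genes were still called higher, with medians of 0.38, 0.49 and 0.52.

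**Figure D2:**
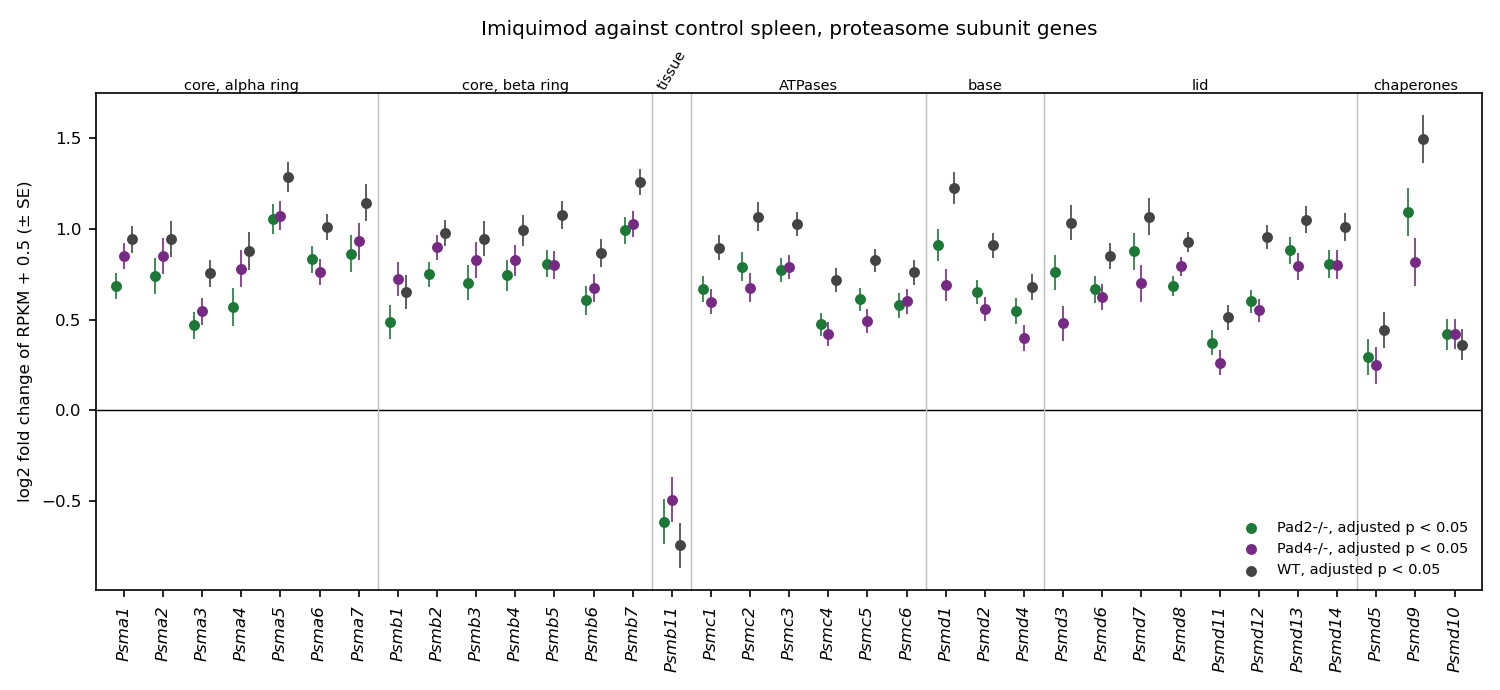
Log2 fold change (± SE) of RPKM + 0.5 between imiquimod and control spleens for the 35 genes tested, by particle and role, in Pad2-/- (green), Pad4-/- (purple) and WT mice (grey). In each genotype 34 genes are above 0 and Psmb11 is below it, and every point passed an adjusted p of 0.05 in limma.

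Among the alpha subunits, all 7 rose in each genotype, with medians of 0.74, 0.85 and 0.94 on the log2 scale in Pad2-/-, Pad4-/- and WT spleens. Psma5 had the largest rise of the ring. It was at 71.5, 69.1 and 62.5 RPKM in the Pad2-/- imiquimod spleens against 34.6, 34.9 and 27.9 in Pad2-/- controls, at 64.0, 65.5 and 65.1 in the Pad4-/- imiquimod spleens against 30.9, 31.7 and 29.2 in Pad4-/- controls, and at 82.8, 88.2 and 86.1 in the WT imiquimod spleens against 35.7, 32.7 and 36.2 in WT controls. No library of an imiquimod group overlapped with its controls, and the WT imiquimod libraries lay above those of both knockouts. The log2 fold changes of Psma5 were 1.06 ± 0.0819, 1.07 ± 0.0819 and 1.29 ± 0.0819 in Pad2-/-, Pad4-/- and WT spleens (SE; limma adjusted p = 4.39e-08, 4.02e-08 and 3.07e-09). Psma7, the alpha4 subunit, was among the 4 genes with the largest rise in Pad4-/- spleens at 0.93 ± 0.102 (limma adjusted p = 1.78e-06).

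All 7 beta subunits of the inner rings rose in each genotype, with medians of 0.74, 0.83 and 0.98 on the log2 scale in Pad2-/-, Pad4-/- and WT spleens. Psmb7, which carries the trypsin-like site, changed most. It was at 110, 112 and 98.4 RPKM in the Pad2-/- imiquimod spleens against 54.4, 57.7 and 47.9 in Pad2-/- controls, at 103, 105 and 99.1 in the Pad4-/- imiquimod spleens against 48.8, 52.4 and 48.6 in Pad4-/- controls, and at 121, 130 and 132 in the WT imiquimod spleens against 53.7, 51.5 and 53.9 in WT controls. Its log2 fold changes were 0.99 ± 0.0737, 1.03 ± 0.0737 and 1.26 ± 0.0737 in Pad2-/-, Pad4-/- and WT spleens (limma adjusted p = 2.69e-08, 2.05e-08 and 1.30e-09). Psmb5, the chymotrypsin-like subunit that clinical proteasome inhibitors target, was at 111, 123 and 102 RPKM in the Pad2-/- imiquimod spleens, 111, 111 and 112 in the Pad4-/- and 123, 136 and 143 in the WT, against 59.3 to 65.8, 61.9 to 65.5 and 61.5 to 66.2 in the controls. Its groups did not overlap either, and it rose by 0.81 ± 0.0762, 0.80 ± 0.0762 and 1.08 ± 0.0762 on the log2 scale in Pad2-/-, Pad4-/- and WT spleens (limma adjusted p = 3.28e-07, 3.90e-07 and 9.69e-09). Psmb6, the caspase-like subunit, rose by 0.61, 0.67 and 0.87 in Pad2-/-, Pad4-/- and WT spleens (SE 0.0777 each), the least of the catalytic trio. Psmb2, the beta4 subunit, rose by 0.90 ± 0.0706 in Pad4-/- spleens, among the 4 largest changes there.

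Psmb11 was the single gene called lower. It was at 0.490, 0.594 and 0.431 RPKM in the Pad2-/- imiquimod spleens against 0.953, 1.14 and 1.02 in Pad2-/- controls, at 0.660, 0.490 and 0.680 in the Pad4-/- imiquimod spleens against 1.02, 1.10 and 1.05 in Pad4-/- controls, and at 0.534, 0.510 and 0.374 in the WT imiquimod spleens against 0.897, 1.23 and 1.28 in WT controls. The groups did not overlap. Psmb11 reached 1 RPKM in control libraries alone, so it passed the filter on low values through the group where it is high, and its call in the filtered table supports nothing. In the fit with no filter its log2 changes were -0.62, -0.49 and -0.75 in Pad2-/-, Pad4-/- and WT spleens (limma adjusted p = 0.000335, 0.00209 and 6.16e-05). Of all 23362 genes in that fit, 5156, 4869 and 4853 were called lower. It also called 35 members higher in Pad2-/- and WT spleens, Psma8 among them, and 34 in Pad4-/- spleens. Both genes lie near the pseudocount of 0.5, so their changes are imprecise.

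In the regulatory particle all 6 ATPases, all 3 other base subunits, all 8 lid subunits and all 3 base chaperones rose in each genotype. Median log2 fold changes in Pad2-/-, Pad4-/- and WT spleens were 0.64, 0.60 and 0.86 for the ATPases and 0.72, 0.66 and 0.98 for the lid. Psmd1, the scaffold of the base that binds the ubiquitin receptor Adrm1, rose most among the base subunits in Pad2-/- and WT spleens, whereas in Pad4-/- spleens the ATPase Psmc3 rose more, by 0.79. It was at 36.6, 31.2 and 34.1 RPKM in the Pad2-/- imiquimod spleens against 17.4, 18.5 and 17.4 in Pad2-/- controls, at 26.1, 28.7 and 28.8 in the Pad4-/- imiquimod spleens against 17.03, 17.06 and 17.10 in Pad4-/- controls, and at 40.4, 34.8 and 46.4 in the WT imiquimod spleens against 16.90, 17.01 and 16.82 in WT controls. The control libraries of all genotypes stayed within 16.8 to 18.5 RPKM, and no imiquimod library overlapped with them. Psmd1 changed by 0.91 ± 0.0875, 0.69 ± 0.0875 and 1.23 ± 0.0875 on the log2 scale in Pad2-/-, Pad4-/- and WT spleens (limma adjusted p = 3.93e-07, 6.96e-06 and 1.06e-08). Psmd4, a ubiquitin receptor of the base, was among the 4 genes with the smallest rise in Pad4-/- spleens, at 0.40 ± 0.0711. Psmd11, a lid subunit that joins lid to base, rose least in the lid, by 0.37, 0.26 and 0.51 in Pad2-/-, Pad4-/- and WT spleens.

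The 3 base chaperones, which help the ATPase ring assemble and leave before the proteasome is complete, differed among themselves. Psmd9 was at 18.4, 12.1 and 13.9 RPKM in the Pad2-/- imiquimod spleens against 6.50, 6.80 and 6.47 in Pad2-/- controls, at 11.2, 12.6 and 12.2 in the Pad4-/- imiquimod spleens against 6.60, 6.41 and 6.79 in Pad4-/- controls, and at 18.6, 14.1 and 20.5 in the WT imiquimod spleens against 6.13, 5.90 and 5.68 in WT controls. The imiquimod groups did not overlap with their controls, and the Pad2-/- and WT imiquimod groups each spread over more than 6 RPKM. Psmd9 had the largest log2 fold change of all 35 genes in Pad2-/- spleens (1.09 ± 0.132) and WT spleens (1.49 ± 0.132; limma adjusted p = 3.64e-06 and 1.10e-07), and rose by 0.82 ± 0.132 in Pad4-/- spleens. Its value is uncertain in one respect: 25.5% of its exonic bases in GENCODE M21 overlap Gm26745 on the opposite strand, and whether reads were counted by strand is not given in the sources used here. Psmb5, Psmb7 and Psmd13 have 12.1%, 11.8% and 10.1% of exonic bases shared with another gene, and no other member has over 10%. Psmd5 rose by 0.29, 0.25 and 0.44 and Psmd10 (gankyrin) by 0.42, 0.42 and 0.36 on the log2 scale in Pad2-/-, Pad4-/- and WT spleens, all past the threshold in limma.

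The 36 genes lie on 16 chromosomes. Promoter stretches are shown for those members whose window holds TGACNNNGC, the core of the antioxidant response element bound by NRF1, the transcription factor that raises proteasome genes when proteasome activity falls. Capitals mark the match, read on either strand, and bases are counted back from the annotated start, the base before it being -1. The sequences are from RefSeq on GRCm38.p6, 5′ to 3′ on the strand of the gene.
Psmd9: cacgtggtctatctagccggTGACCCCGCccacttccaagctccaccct
Psmb5: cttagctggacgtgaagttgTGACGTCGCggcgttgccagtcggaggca
Psmb6: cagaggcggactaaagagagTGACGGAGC
Psmd12: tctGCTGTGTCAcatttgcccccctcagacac
Psmc6: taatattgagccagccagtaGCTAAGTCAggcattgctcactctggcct
The stretch of Psmd9 is chr5:123228139-123228187 on the plus strand with the match at bases -31 to -23, and that of Psmb5 is chr14:54618014-54618062 on the minus strand with the match at -47 to -39. The stretch of Psmb6 is chr11:70525328-70525356 on the plus strand with the match at -9 to -1. Those of Psmd12, chr11:107479278-107479309, and Psmc6, chr14:45329577-45329625, are on the plus strand and hold the reverse complement at -247 to -239 and -227 to -219.

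RefSeq promoter entries matched 29 of the 36 genes, with 31 windows of 300 bases, 250 before the start and 50 after it. TGACNNNGC was present in 16.1% of these windows, against 14.6% of the windows of genes tested in spleen and 12.4% of all 32851 windows. CCAAT was present in 38.7%, against 38.1% and 37.4%. GGGCGG, the core of the GC box, was present in 58.1%, against 61.3% and 35.7%. All 3 motifs were searched on both strands, and in the member windows 1 pair of matches shares bases, TGACNNNGC and GGGCGG in Psmd9. A match describes letters of the window and is no evidence of a bound site, and no match says only that the letters are not in the window.

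Genes that work with the proteasome were called in both directions. In Pad2-/-, Pad4-/- and WT spleens limma called 36.3%, 33.9% and 40.3% of all genes higher and 36.7%, 36.1% and 33.2% lower. The lists below are short and were chosen with earlier results of these data known. Of the 5 core assembly chaperones, 4 rose in Pad2-/-, 4 in Pad4-/- and 5 in WT spleens, among them Psmg1 by 1.19 ± 0.102 and Pomp, the maturation factor of the core, by 0.99 ± 0.106 in WT spleens (limma adjusted p = 7.64e-08 and 8.17e-07). Of 12 other proteins of or on the regulatory particle, 7, 5 and 8 were called higher and 3, 3 and 2 lower in Pad2-/-, Pad4-/- and WT spleens. In WT spleens Sem1, a small lid subunit, rose by 1.05, the deubiquitinases Uchl5 and Usp14 by 1.03 and 0.76, and the receptor Adrm1 by 0.66, and the lower pair was the shuttle Ubqln2 (-0.36) and the ubiquitin ligase Ube3c (-0.26). Of 11 tested genes of the NRF1 pathway, 6 rose in each genotype. Vcp, the segregase that extracts NRF1 from the endoplasmic reticulum, rose by 0.96 ± 0.0602 in WT spleens (limma adjusted p = 2.80e-09). Nfe2l1, which encodes NRF1 itself, had log2 changes of -0.05, -0.10 and -0.02 in Pad2-/-, Pad4-/- and WT spleens, none past the threshold. On the quantile scale Nfe2l1 was called lower in each genotype, at -0.14, -0.14 and -0.19 (limma adjusted p = 0.0287, 0.0287 and 0.00576). The median of all genes on that scale was itself at -0.13, -0.12 and -0.13.

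The immunoproteasome subunits were set beside their constitutive counterparts. Psmb8 was at 270, 359 and 230 RPKM in the Pad2-/- imiquimod spleens, 327, 325 and 352 in the Pad4-/- and 331, 402 and 241 in the WT, against 213 to 273, 220 to 225 and 221 to 259 RPKM in the controls. Its rise was past the threshold in Pad4-/- (0.59 ± 0.168, limma adjusted p = 0.00573) and WT spleens (0.40 ± 0.168, limma adjusted p = 0.0406) and not in Pad2-/- spleens (0.26 ± 0.168, limma adjusted p = 0.176). Psmb9 rose by 0.71, 1.09 and 0.87 (SE 0.193) in Pad2-/-, Pad4-/- and WT spleens. Psmb10 had log2 changes of 0.21, 0.41 and 0.27 (SE 0.147) in Pad2-/-, Pad4-/- and WT spleens, past the threshold in Pad4-/- spleens (limma adjusted p = 0.0206). None of the 3 was past the threshold in WT spleens on the quantile scale. There Psmb8 was at -0.19, Psmb10 at -0.16 and the median of all genes at -0.13.

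A ratio of subunits within a library is not altered by a scaling factor of the library. The Psmb10 to Psmb7 ratio was 0.912 ± 0.0996 in Pad2-/- imiquimod spleens, 1.02 ± 0.0804 in Pad4-/- and 0.807 ± 0.189 in WT, against 1.57 ± 0.139, 1.56 ± 0.0227 and 1.58 ± 0.0586 in the controls (SD, n = 3 each). All imiquimod libraries lay below all control libraries. The Psmb8 to Psmb5 ratio was 2.54 ± 0.343 in Pad2-/- imiquimod spleens against 3.72 ± 0.382 in Pad2-/- controls, 2.998 ± 0.122 against 3.48 ± 0.134 in Pad4-/- and 2.45 ± 0.668 against 3.81 ± 0.188 in WT spleens, and within each genotype the imiquimod libraries lay below the controls. The Psmb9 to Psmb6 ratio was 2.32 ± 0.224 in Pad2-/- imiquimod spleens against 2.17 ± 0.370 in Pad2-/- controls, 2.54 ± 0.218 against 1.90 ± 0.0598 in Pad4-/- and 2.13 ± 0.543 against 2.08 ± 0.192 in WT spleens, with overlapping groups in Pad2-/- and WT spleens and the imiquimod libraries above the controls in Pad4-/- spleens. WT imiquimod replicate 3 had the lowest value of all 18 spleen libraries in each ratio, with 1.69 for Psmb8 to Psmb5, 1.54 for Psmb9 to Psmb6 and 0.605 for Psmb10 to Psmb7. With 3 libraries against 3, an exact permutation test could not give a two-sided p under 0.10, so the ratios were not tested.

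**Figure D3:**
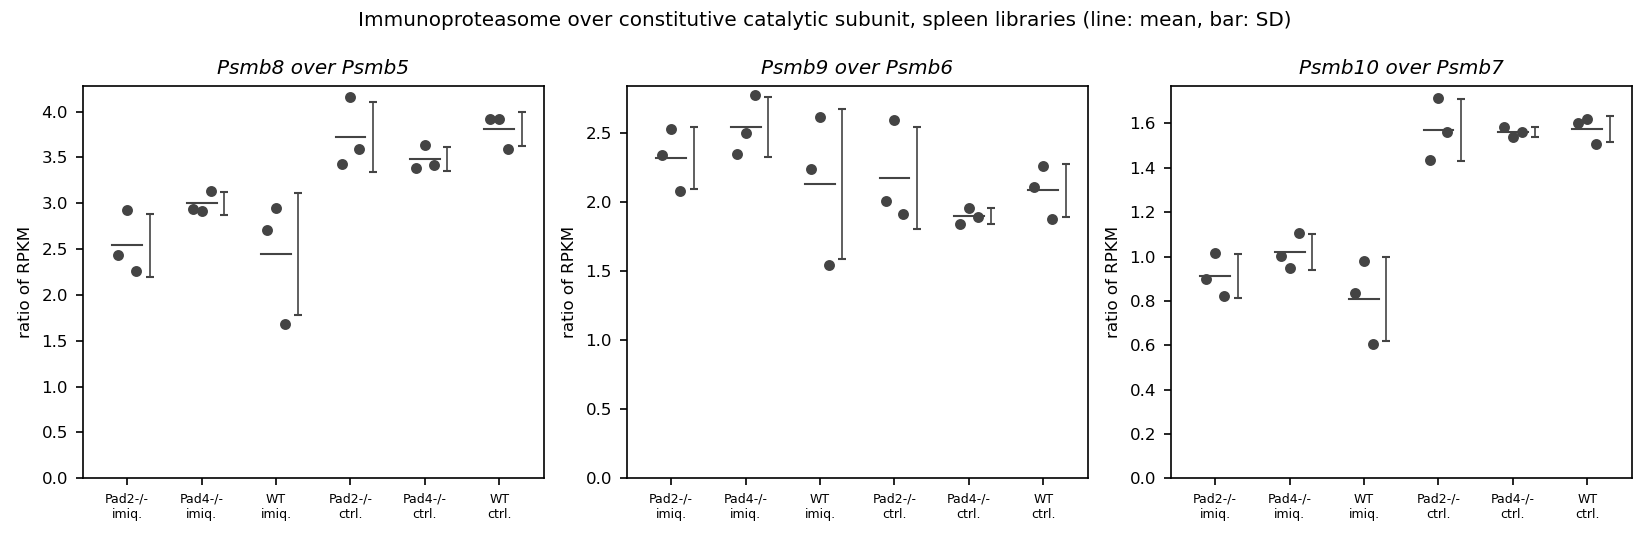
Ratio of the RPKM of each immunoproteasome catalytic subunit to that of the constitutive subunit it replaces, in each spleen library, by group, with the group mean as a line and the SD as a bar. The Psmb10 to Psmb7 means are 0.912, 1.02 and 0.807 in imiquimod spleens against 1.57, 1.56 and 1.58 in control spleens, whereas the Psmb9 to Psmb6 groups overlap in Pad2-/- and WT mice.

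Markers of other cells moved with imiquimod as well. In WT spleens limma called all 13 erythroid, all 6 neutrophil precursor, all 6 mature neutrophil, all 7 monocyte and macrophage and all 12 mitotic genes higher. It called all 8 B cell and all 8 T cell genes lower. Of all genes, 40.3% were called higher and 33.2% lower there. These lists were chosen with earlier results of these data known, so their counts are no independent finding. Summed mitotic genes were at 405 to 667 RPKM in Pad2-/- imiquimod spleens, 410 to 427 in Pad4-/- and 476 to 607 in WT, against 51.2 to 56.2, 31.1 to 37.5 and 31.3 to 42.8 in the controls. Summed plasma cell genes were at 469 to 801 RPKM in Pad2-/- imiquimod spleens, 917 to 1678 in Pad4-/- and 487 to 1361 in WT, against 145 to 159, 105 to 130 and 104 to 128 in their controls. Of 7 plasma cell genes 6 were called higher in each genotype, where 36.3%, 33.9% and 40.3% of all genes were. In bulk tissue fewer cells of a type and less RNA per cell cannot be told apart, and the part of cell composition or division in the rise of the proteasome genes was not tested.

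In control spleens no constitutive subunit gene was called between genotypes. In Pad2-/- against WT control spleens limma called 0 of 35 genes (0 at an unadjusted p under 0.05), where 0.142% of all genes were called. The log2 differences ran from -0.11 for Psma5 to 0.15 for Psmd9, with SEs up to 0.132. In Pad4-/- against WT control spleens limma called 0 of 35, where 0.150% of all genes were called. At an unadjusted p under 0.05 there were 6, for which no share over all genes is given here. The smallest p-values there belonged to Psmb2 (-0.20), Psmd5 (-0.27) and Psmc6 (-0.16). Psmc6 was at 24.2, 25.2 and 25.3 RPKM in Pad4-/- control spleens against 28.8, 26.7 and 27.9 in WT control spleens, without overlap. All Pad4-/- control libraries lay below all WT controls for 14 of 35 genes, where 10.6% of all genes did so, and above them for 4 (25.3% of all genes). When the spread was estimated from these 6 libraries alone, 6 of the 35 genes were called lower, among 405 lower and 919 higher of all 11982 genes.

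With imiquimod, proteasome genes were lower in Pad4-/- than in WT spleens. Summed levels were 2499 ± 29.2 RPKM in Pad4-/- and 3043 ± 96.0 in WT imiquimod spleens, a ratio of 0.821, with 0.835 for the core and 0.802 for the regulatory particle. At an unadjusted p under 0.05 there were 32 of 35 genes, for which no share over all genes is given here. Limma called 22 of 35 genes lower and 0 higher, where 5.69% of all genes were called lower and 1.58% higher. The calls took in 4 of 7 alpha subunits, 2 of 7 beta subunits, 6 of 6 ATPases, 2 of 3 other base subunits, 6 of 8 lid subunits and 2 of 3 base chaperones. The median log2 difference was -0.29, against -0.04 over all genes, and the groups did not overlap for 33 of 35 genes, all of them lower in Pad4-/-, where 19.2% of all genes did not overlap in either direction. The 22 log2 differences ran from -0.25 to -0.53.

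The count rests on few libraries. It was 2 without WT imiquimod replicate 3, 10 without Pad4-/- imiquimod replicate 3, 14 without Pad4-/- imiquimod replicate 1, and 0 when the spread was estimated from these 6 libraries alone rather than from all 18 spleen libraries. In the same fits 91, 276, 307 and 2 of all genes were called lower, against 682 with every library. On the quantile scale 9 of the 35 genes were called lower, 8 of them of the regulatory particle, and the numbers of all genes higher and lower were 429 and 415 there, 470 and 614 with median-ratio scaling, and 189 and 682 as deposited. Erythroid sums were 57134, 3359 and 10337 RPKM in Pad4-/- imiquimod replicates 1, 2 and 3, whose summed proteasome genes were at 2467, 2525 and 2504 RPKM. WT imiquimod replicate 3 had the highest summed regulatory particle, 1364 RPKM against 1236 and 1163 in replicates 1 and 2. Among the WT libraries it also had the highest erythroid sum (32220 RPKM against 7884 and 10990) and the lowest plasma cell sum (487 RPKM against 1361 and 1184). The part of these cells in the difference was not tested.

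Psmd1 had the smallest adjusted p among the proteasome genes in Pad4-/- against WT imiquimod spleens. The libraries given above average 27.9 ± 1.53 RPKM in Pad4-/- and 40.5 ± 5.85 RPKM in WT imiquimod spleens, without overlap, a log2 difference of -0.52 ± 0.0875 (limma adjusted p = 0.00662). Psmd9 differed by -0.53 ± 0.132 (limma adjusted p = 0.0282) and Psmd5 by -0.46 ± 0.0998 (limma adjusted p = 0.0150). Psmc2, an ATPase of the base, was at 52.5, 55.7 and 51.8 RPKM in Pad4-/- imiquimod spleens against 70.9, 64.1 and 79.8 in WT imiquimod spleens. Its groups did not overlap, with a difference of -0.42 ± 0.0796 (limma adjusted p = 0.0101). The other ATPases Psmc1, Psmc3, Psmc4, Psmc5 and Psmc6 differed by -0.31, -0.30, -0.28, -0.28 and -0.32.

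In the lid Psmd7, the partner of the deubiquitinase Psmd14, was at 42.4, 46.4 and 45.7 RPKM in Pad4-/- imiquimod spleens against 59.6, 52.0 and 75.1 in WT, a log2 difference of -0.45 ± 0.102 (limma adjusted p = 0.0181). Psmd14 itself was at 41.4, 48.3 and 44.6 RPKM in Pad4-/- against 55.7, 51.2 and 57.9 in WT, a difference of -0.29 ± 0.0784 (limma adjusted p = 0.0370). Neither gene overlapped between the groups. Psmd3, Psmd6, Psmd11 and Psmd12 differed by -0.40, -0.36, -0.26 and -0.35, and Psmd2, the large base subunit that receives ubiquitin shuttles, by -0.35. In the core Psma5 differed by -0.40, Psma3 by -0.35, Psmb7 by -0.32, Psmb2 by -0.28, and Psma1 and Psma6 by -0.25 each, all past the threshold. Psmb5 (-0.26, limma adjusted p = 0.0528) and Psmb6 (-0.25, limma adjusted p = 0.0616) lay just outside it. The immunoproteasome trio had differences of 0.08 for Psmb8, 0.03 for Psmb9 and 0.04 for Psmb10, none past the threshold.

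**Figure D4:**
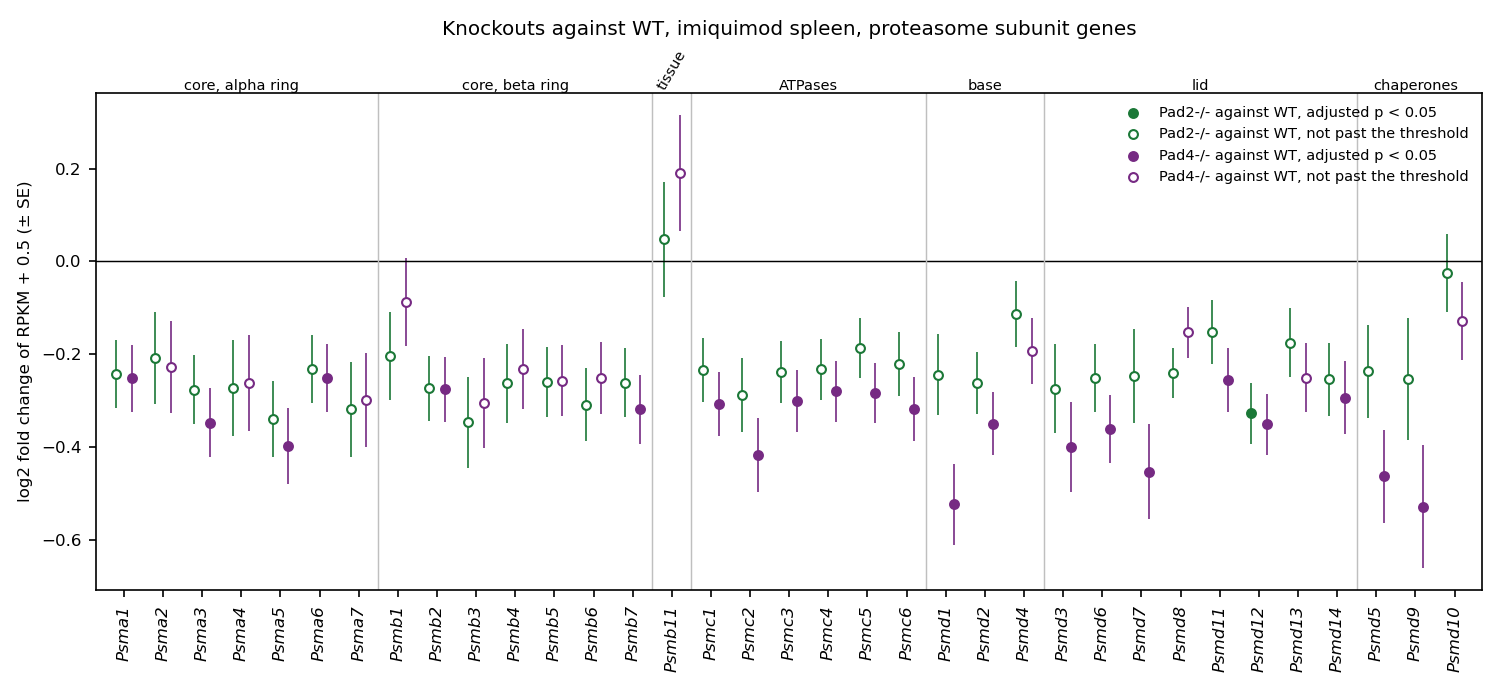
Log2 difference (± SE) of RPKM + 0.5 from WT in imiquimod spleens for the 35 genes tested, in Pad2-/- (green) and Pad4-/- mice (purple), with filled points for an adjusted p under 0.05 in limma. In Pad4-/- spleens 22 points are filled, all below 0, and in Pad2-/- spleens Psmd12 is the one filled point.

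Other proteasome-related genes were called lower in the same comparison: 2 of 5 assembly chaperones (Psmg1 at -0.40 and Psmg3 at -0.39), 2 of 12 further regulatory particle and bound proteins (Usp14 at -0.44 and Uchl5 at -0.30) and 2 of 11 NRF1 pathway genes, Ddi2, the protease that activates NRF1, at -0.36 and Vcp at -0.22. None was called higher in these lists, and none of the 5 activators and inhibitor was called in either direction (0 at an unadjusted p under 0.05 in limma). Over all genes, 5.69% were called lower and 1.58% higher. Among marker lists, 1 of 12 mitotic and 1 of 7 monocyte and macrophage genes were called lower and 2 of 8 B cell and 2 of 8 T cell genes higher. Summed mitotic genes were at 418 ± 8.79 RPKM in Pad4-/- and 530 ± 68.5 in WT imiquimod spleens, and summed B cell genes at 1444 ± 357 RPKM in Pad4-/- and 996 ± 267 in WT imiquimod spleens (SD, n = 3). Their part in the lower proteasome genes was not tested.

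Pad2-/- imiquimod spleens were compared with the same WT imiquimod libraries. Summed levels were 2554 ± 171 RPKM in Pad2-/- and 3043 ± 96.0 in WT, a ratio of 0.839. The median log2 difference was -0.25. At an unadjusted p under 0.05 there were 30 of 35 genes, for which no share over all genes is given here. Limma called 1, where 0.334% of all genes were called lower. This was Psmd12, a lid subunit, at 35.8, 34.5 and 34.1 RPKM in Pad2-/- against 43.4, 40.3 and 47.9 in WT imiquimod spleens, a difference of -0.33 ± 0.0651 (limma adjusted p = 0.0383). The groups did not overlap for Psmd12. For 20 of 35 genes every Pad2-/- library lay below every WT library (9.62% of all genes). The count was 16 without Pad2-/- imiquimod replicate 2 (498 of all genes lower, against 40 with every library), 11 without WT imiquimod replicate 2 (570 of all genes), and 0 without WT imiquimod replicate 1, WT imiquimod replicate 3 or Pad2-/- imiquimod replicate 3. Erythroid sums were 99974, 7292 and 87481 RPKM in Pad2-/- imiquimod replicates 1, 2 and 3, against 7884, 10990 and 32220 in WT. The summed proteasome genes of the same libraries were at 2579, 2712 and 2372 RPKM in Pad2-/- and at 2942, 3053 and 3133 RPKM in WT. The part of erythroid RNA in the difference was not tested. Psmd12 in Pad4-/- imiquimod spleens was at 32.1, 35.7 and 34.9 RPKM, with a difference of -0.35 ± 0.0651 from the same WT libraries (limma adjusted p = 0.00940).

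Whether the response to imiquimod itself differed between genotypes was tested by an interaction term. In Pad2-/- minus WT limma called 0 of 35 genes, where 0.0334% of all genes were called. In Pad4-/- minus WT it called 0 of 35, where 0.0668% of all genes were called. At an unadjusted p under 0.05 there were 16 and 18 of the 35, for which no share over all genes is given here. Most signs were negative, 33 of 35 in Pad2-/- and 32 of 35 in Pad4-/-, with medians of -0.24 and -0.23 against -0.09 and -0.08 over all genes. The share of negative signs over all genes is not given here. In Pad2-/- the smallest p-values belonged to Psmd12 (-0.35 ± 0.0921, limma adjusted p = 0.463), Psmd8 (-0.25) and Psma3 (-0.29). In Pad4-/- they belonged to Psmd12 (-0.40 ± 0.0921), Psmd1 (-0.54 ± 0.124), both at a limma adjusted p of 0.104, and Psmd3 (-0.55 ± 0.136, limma adjusted p = 0.118). Without WT imiquimod replicate 2 the Pad4-/- interaction called 11 members lower, among 716 of all genes. Both interactions share the WT libraries. The sizes depended on the scaling. With quantile normalization the medians of the 35 genes were -0.14 in Pad2-/- and -0.05 in Pad4-/-, with 2 and 10 genes positive. The medians of all genes were -0.01 and 0.01 there. With median-ratio scaling those of the 35 genes were -0.15 and -0.13, with 2 and 5 positive, against -0.008 and 0.001 over all genes.

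In lymph nodes of imiquimod-treated mice no constitutive subunit gene was called between genotypes. Summed levels were 2415 ± 194 RPKM in Pad2-/-, 2565 ± 410 in the libraries labelled Pad4-/- and 2507 ± 62.8 in WT (SD, n = 4 each). Limma called 0 of 35 genes in Pad2-/- against WT, with 0 at an unadjusted p under 0.05 and 0.464% of all genes called, and 0 of 35 in Pad4-/- against WT, with 0 at an unadjusted p under 0.05 and 0.00814% of all genes called. The second count was also 0 without the libraries labelled Pad4-/- replicates 3 and 4. The 4 libraries labelled Pad4-/- spread from 2197 to 3113 RPKM in summed level, replicate 1 being highest.

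Psmb5 was at 98.7, 103, 130 and 99.2 RPKM in Pad2-/- lymph nodes, 132, 91.6, 107 and 98.0 in those labelled Pad4-/- and 113, 101, 99.1 and 101 in WT, with overlapping groups. Psmd1 had the smallest p in Pad2-/- against WT lymph nodes. It was at 25.0, 24.8, 26.0 and 26.2 RPKM in Pad2-/- against 29.9, 30.2, 30.1 and 28.4 in WT lymph nodes, without overlap, a difference of -0.21 ± 0.116 (limma adjusted p = 0.453). It was followed by Psmd2 (-0.22) and Psmd11 (-0.19). Every Pad2-/- library lay below every WT library for 4 of 35 genes, where 4.74% of all genes did so. The median log2 difference in Pad2-/- against WT lymph nodes was -0.07 over the 35 genes and -0.12 over all genes. With median-ratio scaling these medians were 0.06 and 0.007, and 25 of the 35 differences were positive. In the libraries labelled Pad4-/- against WT the smallest p-values belonged to Psmb6 (0.12), Psmd11 (-0.11) and Psmd2 (-0.10), with SEs up to 0.289 over the 35 genes.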

How the data were processed

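Spleen and lymph node RNA was enriched for poly(A) tails and sequenced, per the labels' protocols. Per the submitters' processing notes, bcl2fastq 1.17.1 and TopHat2 2.1.0 were used with the mouse build mm10, and which tool and annotation gave the gene values is not given in the sources used here. RPKM values were deposited by the authors as 1 table per tissue, and depth is unknown from RPKM. Values were analysed as log2(RPKM + 0.5) for genes reaching 1 RPKM in 3 or more libraries of spleen, or 4 or more of lymph node (11982 and 12285 genes), with limma 3.58.1 in R 4.3.3, trended variance, all groups of a tissue in 1 fit, two-sided tests and Benjamini-Hochberg adjustment over all genes of the tissue. The fit was tested on simulated data. No pair of libraries held identical values.

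The members and gene lists were chosen with earlier results of these data known. Genes named with values are the catalytic subunits, the 4 highest and 4 lowest members of each imiquimod comparison, members past the threshold in the knockout comparisons (3 of smallest p where none passed), and up to 4 genes per other list. Alternatives were 2 other pseudocounts, no filter, quantile and median-ratio scaling, a fit of the compared groups alone, the replicate number as a block, and each library left out. Positions and exon overlaps are from GENCODE M21 on GRCm38.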

Additional observations from a re-analysis of the deposited data

Results flagged for a closer look

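In the lymph node groups of 4 libraries, each member's values were searched for a library whose gap to its nearest neighbour exceeded 0.829 of the group's range. Of 108 gene and group sets, 12 held one, where chance gives about 5% of independent sets. The sets are not independent, since all genes share the same libraries and several flags fall on the same library. The count therefore cannot be judged against that rate. None of the 12 flags is explained here.

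In Pad2-/- lymph nodes replicate 3 stood above the others for Psmb5 (130 RPKM), Psmb6 (110 RPKM, 109.7 before rounding) and Psmd13 (64.7 RPKM), and replicate 1 stood apart for Psmc1 (66.0 RPKM). In the libraries labelled Pad4-/-, replicate 4 was highest for Psmb11 (3.86 RPKM, against 0.940 to 1.44 in the others) and replicate 1 for Psmc5 (77.1 RPKM). In WT lymph nodes replicate 4 stood above the others for Psmb1 (173 RPKM), Psmd9 (9.85 RPKM) and Psmd10 (21.7 RPKM) and below them for Psmd1 (28.4 RPKM). Replicate 1 was highest for Psmb5 (113 RPKM), and replicate 3 was lowest for Psma1 (88.4 RPKM).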

How the results depend on the processing

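The counts of members higher and lower with imiquimod stayed within 1.5 times their main values under every alternative in all 3 genotypes, with 33 or 34 higher when any 1 library was left out. In Pad4-/- against WT imiquimod spleens the count of 22 lower became 9 with quantile normalization and 0 with the compared groups alone, and ranged from 2 to 21 with single libraries left out. In Pad2-/- against WT imiquimod spleens the count of 1 became 2 without the filter and 0 with quantile normalization, with median-ratio scaling and with the compared groups alone, and ranged from 0 to 16 with single libraries left out. In control spleens of Pad4-/- against WT, 6 members were called lower with the compared groups alone. The Pad4-/- interaction ranged from 0 to 11 lower with single libraries left out. In lymph nodes no alternative gave a call. Median-ratio scaling turned the median of the members in Pad2-/- against WT lymph nodes from -0.07 to 0.06. Without the libraries labelled Pad4-/- replicates 3 and 4, the lymph node differences of Psmd11 and Psmd2 turned from -0.11 and -0.10 to 0.0496 and 0.0729. The cause of these changes was not tested, beyond the smaller number of libraries in the fits that leave some out. Among values of single named members under an alternative, 850 kept direction and side of the threshold, 116 lost it, 6 passed it and 2 turned.

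Replicate numbers are shared between groups, and whether they pair the libraries cannot be told from these values. In spleen, deviations from the group means correlated between -0.478 and 0.612 in same-numbered libraries (median 0.0544). They correlated between -0.603 and 0.643 in differently numbered ones (median -0.0135). In lymph node the ranges were -0.301 to 0.394 and -0.539 to 0.560. With the replicate number as a block, 19 members were lower in Pad4-/- and 0 in Pad2-/- against WT imiquimod spleens, and no other count of members changed.

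RPKM carries no read depth, so no counting interval can be given, and groups of 3 or 4 libraries limit the precision.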
